A study of Mus musculus with 8 samples.

Results

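Sequencing of the RNA crosslinked to and immunoprecipitated with a protein (CLIP–seq) marked 10 heterogeneous nuclear ribonucleoprotein (hnRNP) transcripts in mouse embryonic stem (mES) cells: Hnrnpa1, Hnrnpa2b1, Hnrnpa3, Hnrnpab, Hnrnpc, Hnrnpd, Hnrnpk, Hnrnpm, Hnrnpu and Hnrnpul2. A peak was given to a gene when its midpoint lay in the gene body on the same strand (mouse build mm10, GENCODE M21). By this rule 134 of the 29555 peaks of 4 CLIP libraries belonged to the 10 genes, which are 10 of the 21951 protein-coding genes of the annotation. The 134 peaks merged into 47 of 12074 sites, where a site is a run of same-strand peaks that overlap by at least 1 bp.

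The cells stably overexpressed a Flag-tagged human MBD5 or MBD6 coding sequence, delivered by lentivirus and kept under hygromycin selection, in serum with LIF, CHIR99021 and PD0325901. MBD5 and MBD6 are methyl-CpG-binding domain proteins that associate with the PR-DUB complex, which removes ubiquitin from histone H2A. Of the 8 samples, 4 are immunoprecipitates, 2 for Flag-MBD5 and 2 for Flag-MBD6, and 4 are matching RNase-digested inputs. The comparison made here was between the transcripts that the 2 proteins pulled down. The inputs were not analysed here as samples of their own, and untransduced cells were not analysed here either, so no level without a tagged protein can be set beside the values. The sample characteristics name a Flag antibody and the extraction protocol names an MBD6 antibody, while the study's methods give the Flag antibody. RNase T1, which cuts after G, trimmed the bound RNA before small RNA libraries were made.

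The hnRNP proteins coat newly made RNA in the nucleus and take part in its splicing, export, stability and translation. They bind RNA through RNA-recognition motifs, KH domains or arginine- and glycine-rich stretches, and many of their genes control their own splicing. Embryonic stem cells make them in large amounts. Here the measured objects were the hnRNP transcripts held by MBD5 or MBD6, not the hnRNP proteins.

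Sites chosen mostly by fold enrichment, not by reads, can be read directly. The following lines give the first 30 nt of a site, 5′ to 3′ on the transcript, from the 5′ end of its peaks (GENCODE M21 transcripts, mm10; a plus or minus sign gives the strand). Capitals mark in-frame codons that begin with GA, which encode aspartate or glutamate. Each of these 12 sites had a peak in all 4 libraries. They were taken from the 1 or 2 sites of each gene with the highest mean fold enrichment, together with Hnrnpu site 10, which is added for its arginine and glycine codons.
Hnrnpu site 7 (exon 10, chr1:178331157-178331186, −): tgcccaaaaGATGAAGACtataagcagagg
Hnrnpu site 5 (exon 7, chr1:178332320-178332349, −): aaactGATGAAgttGAActctcttatgcga
Hnrnpu site 10 (exon 13, chr1:178329910-178329939, −): aacttcagaggacgaggaaataatcgtggc
Hnrnpul2 site 3 (exon 3, chr19:8823237-8823266, +): tccccaccacctccaGAAGAAGAAgcaaaa
Hnrnpa2b1 site 4 (exon 8, chr6:51464499-51464528, −): ccctggttatggaggaggaagaggaggata
Hnrnpa2b1 site 2 (exon 6, chr6:51466156-51466185, −): caattttggaccaggaccaggaagcaactt
Hnrnpab site 1 (exon 2, chr11:51606375-51606404, −): agcgggaaccagaacggcgcgGAGggcGAC
Hnrnpab site 3 (exon 5, chr11:51604442-51604471, −): attacatttaaaGAGGAAGATcctgtgaag
Hnrnpc site 3 (exon 8, chr14:52075388-52075417, −): agtaGAGatgaagaatGAAaagtctGAAga
Hnrnpk site 5 (exon 15, chr13:58393254-58393283, −): aacctttaGAAggatctGAAGATcggatca
Hnrnpm site 1 (exon 1, chr17:33685343-33685372, −): caggggtcGAAgcggcagccGAAgtggcgg
Hnrnpm site 3 (exon 3, chr17:33670095-33670124, −): taacatacgtgGAGctcttaatgGACgctg
Acidic codons stand in runs in Hnrnpul2 site 3, Hnrnpu site 7 and Hnrnpab site 3, whereas both Hnrnpa2b1 windows and Hnrnpu site 10 hold none and are rich in glycine codons. In the window of Hnrnpa2b1 site 4, 6 of 9 whole codons encode glycine.

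The 4 libraries differed in depth and number of peaks. Flag-MBD5 replicates 1 and 2 had 5362 and 5388 peaks, and Flag-MBD6 replicates 1 and 2 had 9218 and 9587. The reads behind the peaks, estimated from the peak lists, were 478790, 500143, 983918 and 1111742 in the same order, so that Flag-MBD6 libraries had 2.14 times as many. At deeply covered sites the spread of summit reads between replicates was smaller than sampling noise gives, with a chi-square per degree of freedom of 0.496 for Flag-MBD5 and 0.414 for Flag-MBD6, against 3.74 to 4.39 for pairs of different proteins. At the 21 hnRNP sites with a peak in all 4 libraries it was 0.345 and 0.679 between replicates and 0.967 to 1.38 between libraries of different proteins. The value scales each pair by the summed reads of the same sites, so it cannot show a shift common to them. Beyond such a shift, the spread between the proteins was about sampling noise and above that between replicates. Most of these sites were shallower than the deeply covered ones, so the 2 sets of values are not comparable in size. Since replicates varied by less than sampling noise, each protein was counted as 1 sample. Its 2 libraries are shown side by side, and no test over libraries was made. Intervals below are exact 95% intervals that cover counting error only.

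Peaks were found in 8, 8, 9 and 10 of the 10 hnRNP genes in the 4 libraries (Flag-MBD5 1, Flag-MBD5 2, Flag-MBD6 1 and Flag-MBD6 2, the order used throughout). Over all protein-coding genes the shares with a peak were 10.1%, 9.9%, 16.2% and 16.5%. The genes had been picked with these peaks known, so their count is a description. A site shared by both Flag-MBD5 libraries occurred in 8 members (background 7.82%), by both Flag-MBD6 libraries in 9 (background 13.8%), and by all 4 libraries in 8 (background 7.35%). The members held 27, 28, 37 and 42 peaks, which were 0.504%, 0.520%, 0.401% and 0.438% of all peaks. With only the 5362 most significant peaks of each library, the members held a mean of 27.5 peaks in Flag-MBD5 and 27 in Flag-MBD6, with a site in both libraries of a protein in 8 and 7 genes, so the higher Flag-MBD6 numbers were not seen at equal numbers of peaks.

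Of the 47 member sites, 21 (44.7%) had a peak in all 4 libraries, against a background of 29.5% of all sites. A further 4 sites were present in 3 libraries, 10 in 2 and 12 in 1. A peak in Flag-MBD6 and none in Flag-MBD5 was seen at 18 sites (38.3%, background 45.4%), of which 8 were in both Flag-MBD6 libraries. These 18 sites had at most 31 summit reads. A peak in Flag-MBD5 and none in Flag-MBD6 was seen at 2 sites (4.26%, background 7.33%), both in Hnrnpk and each in a single library.

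**Figure D1:**
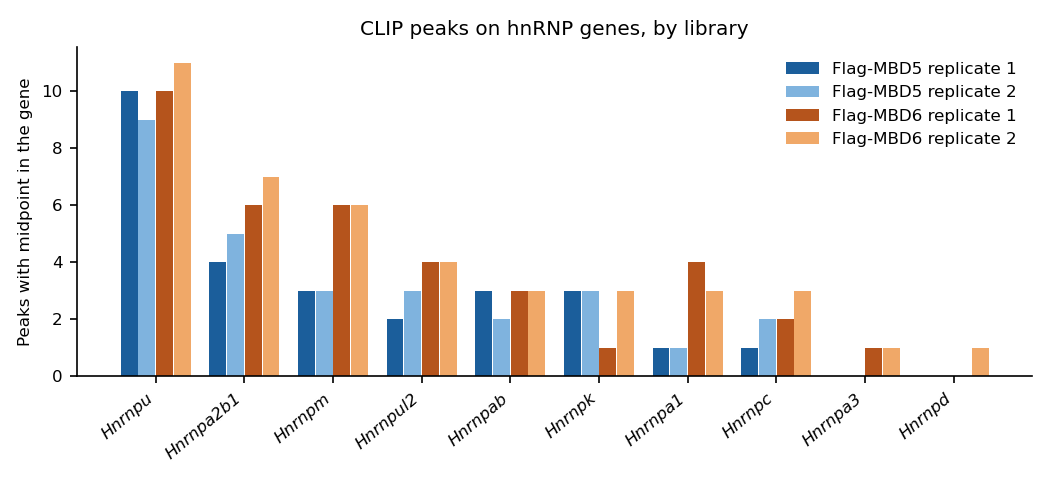
Number of CLIP peaks (y axis) in each of the 10 hnRNP genes (x axis) in the 4 libraries, with no error bars since each bar is 1 library. Hnrnpu has 9 to 11 peaks in every library, Hnrnpa3 and Hnrnpd have none in Flag-MBD5, and the other genes lie between.

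Hnrnpu carried the most sites. The gene (chr1:178321108-178337797, minus strand) encodes the scaffold attachment factor SAF-A, a DNA- and RNA-binding protein of the nuclear matrix that also tethers Xist RNA to chromatin. It held 10, 9, 10 and 11 peaks, more than any other member in each library. These formed 11 sites, 8 of them in all 4 libraries, or 3.33 such sites per kb of coding sequence, against a median of 0.801 over the 1607 genes with at least 1 such site. Still, 27 genes had more sites in all 4 libraries than Hnrnpu, up to 25. The shared sites of Hnrnpu lay in exons 1, 2, 6, 7, 10, 11, 12 and 13 of the 14 exons of transcript Hnrnpu-201 and so were spread over its 800 codons.

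Hnrnpu site 7, at codon 583, held 84, 80, 149 and 142 reads at the summit. Divided by the estimated reads of each library and expressed as reads per 1000000 (RPM), this came to 175, 160, 151 and 128, a range in which the 2 Flag-MBD5 libraries were higher than both Flag-MBD6 libraries. The log2 ratio of Flag-MBD6 to Flag-MBD5 was −0.27 (interval −0.55 to 0.014), which includes 0. The fold enrichment of the same site was 61.0 and 57.7 in Flag-MBD5 but 23.6 and 22.2 in Flag-MBD6, a log2 ratio of −1.38. The local background rate under the summit was 0.39 and 0.40 reads in Flag-MBD5 and 5.37 and 5.44 reads in Flag-MBD6. By fold enrichment the site ranked 30 of 5362 and 32 of 5388 among the Flag-MBD5 peaks and 1146 of 9218 and 1336 of 9587 among the Flag-MBD6 peaks. Fold enrichment is the summit reads over this rate, each with a small constant added, so the rate enters it directly. Why the rate differed between the proteins was not tested.

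Hnrnpu site 1 held the most reads of any member site in Flag-MBD5, with 85, 91, 122 and 131 reads and a fold enrichment of only 14.1, 14.2, 16.8 and 11.7. Its peaks began on both sides of the start codon in exon 1, up to 61 nt apart, and the site was 599 bp wide. In RPM it stood at 178, 182, 124 and 118, with both Flag-MBD5 libraries above both Flag-MBD6 libraries, and a log2 ratio of −0.57 (interval −0.86 to −0.29). Hnrnpu site 5 joined neighbouring peaks over 640 bp around exon 7 and held 49, 54, 84 and 94 reads (102, 108, 85.4 and 84.6 RPM), with a log2 ratio of −0.31 (interval −0.67 to 0.056). Its strongest peaks began up to 129 nt apart, further 3′ in both Flag-MBD5 libraries than in the Flag-MBD6 libraries. The ratio thus sets unlike peaks side by side, and the sequence shown for the site starts at the strongest Flag-MBD6 peaks. Hnrnpu site 10, in the arginine- and glycine-rich end of the protein, held 29, 27, 40 and 46 reads (60.6, 54.0, 40.7 and 41.4 RPM), with both Flag-MBD5 libraries above both Flag-MBD6 libraries and an interval of −0.98 to 0.033 around −0.48. The other shared sites of Hnrnpu were smaller. Site 2 held 24, 18, 44 and 36 reads, site 4 held 14, 17, 36 and 43, site 8 held 10, 13, 30 and 25, and site 9 held 11, 14, 29 and 21. Site 4 had the highest log2 ratio of any member site, 0.25, with an interval of −0.36 to 0.90. Sites 3, 6 and 11 had peaks in 1 or 2 libraries, with at most 21 reads.

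Hnrnpul2 (chr19:8820010-8834143, plus strand) encodes a relative of Hnrnpu with a similar domain order. It held 2, 3, 4 and 4 peaks in 5 sites. Site 1, in exon 1, held 31, 31, 47 and 44 reads, or 64.7, 62.0, 47.8 and 39.6 RPM. Its log2 ratio was −0.54 (interval −1.03 to −0.055). Site 3, with its 3 glutamate codons after a proline stretch, held 25, 23, 39 and 36 reads (52.2, 46.0, 39.6 and 32.4 RPM), a log2 ratio of −0.45 (interval −0.996 to 0.10). The other 3 sites had 7 to 17 reads where they had a peak, and site 5 also lies in the overlapping gene AC129217.1 on the same strand.

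**Figure D2:**
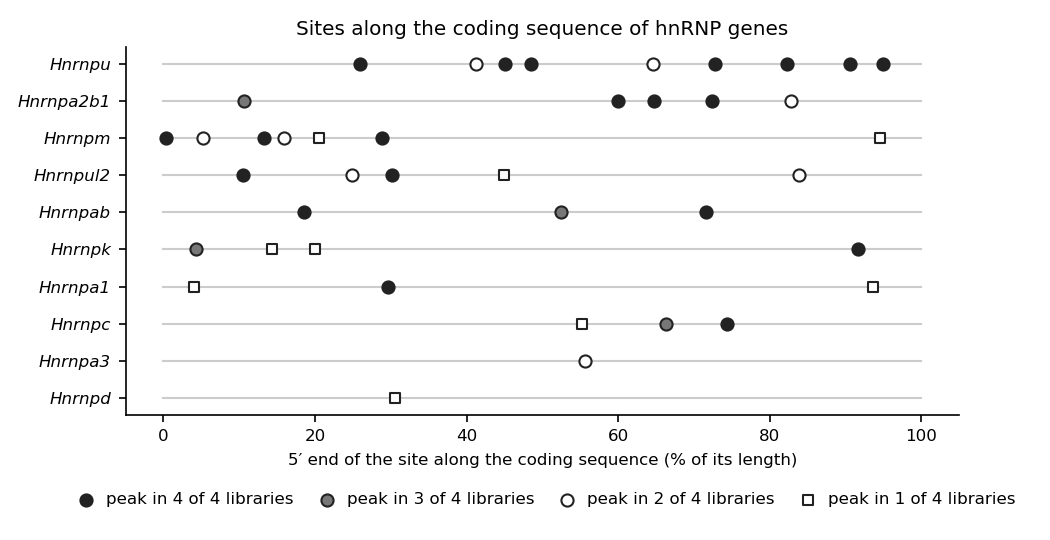
Position of the 5′ end of 41 member sites along the coding sequence (x axis, percent of its length) for each gene (rows), with filled points for sites in all 4 libraries and open points for the others. The 6 sites whose 5′ end lies outside the coding sequence are not drawn, and the black points of Hnrnpu spread over most of the coding sequence.

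The A/B-type genes encode abundant splicing regulators with RNA-recognition motifs and a glycine-rich tail. Hnrnpa2b1 (chr6:51460932-51469894, minus strand), whose product also sorts RNAs into granules and vesicles, held 4, 5, 6 and 7 peaks in 6 sites. Site 4, inside the glycine-rich tail at codon 248, held 30, 25, 62 and 54 reads. In RPM these were 62.7, 50.0, 63.0 and 48.6, and the libraries of both proteins overlapped, with a log2 ratio of −0.022 (interval −0.50 to 0.47). Site 2 held 19, 19, 46 and 46 reads (39.7, 38.0, 46.8 and 41.4 RPM) and a log2 ratio of 0.18 (interval −0.38 to 0.76), but it chained peaks over 676 bp and the strongest peaks of the libraries began up to 508 nt apart. They began further 3′ in both Flag-MBD5 libraries than in the Flag-MBD6 libraries. The ratio of site 2 thus sets unlike peaks side by side, and its sequence as shown starts at the strongest Flag-MBD5 peaks. Site 3, also in the tail, held 11, 10, 21 and 25 reads. Sites 5 and 6 had a peak in both Flag-MBD6 libraries and in neither Flag-MBD5 library, with 26 and 31 reads at site 5 and 16 and 18 reads at site 6, which lies in the 3′ UTR.

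Hnrnpa1 (chr15:103240432-103246692, plus strand) encodes a shuttling protein that represses the use of splice sites. It held 1, 1, 4 and 3 peaks in 5 sites, and only site 4 was in all 4 libraries. That site, in exon 4, held 13, 12, 25 and 25 reads, or 27.1, 23.99, 25.4 and 22.5 RPM, with overlapping libraries and a log2 ratio of −0.098 (interval −0.82 to 0.66). Hnrnpa3 (chr2:75659261-75669407, plus strand), a close relative, held 0, 0, 1 and 1 peaks. Its 1 site had 11 reads in each Flag-MBD6 library and started within 15 nt of the 3′ end of exon 5.

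Hnrnpab and Hnrnpd encode related proteins that bind AU-rich elements and act on mRNA stability and transcription. Hnrnpab (chr11:51600100-51606847, minus strand) held 3, 2, 3 and 3 peaks in 3 sites. Site 1, near the amino terminus at codon 54, held 43, 39, 43 and 40 reads although the Flag-MBD6 libraries were deeper. In RPM it stood at 89.8 and 78.0 in Flag-MBD5 and at 43.7 and 36.0 in Flag-MBD6. Its log2 ratio of −1.08 (interval −1.54 to −0.62) was the lowest of the member sites. Site 3 held 14, 25, 25 and 36 reads, or 29.2, 50.0, 25.4 and 32.4 RPM, where the 2 Flag-MBD5 libraries lay further apart than the proteins. Hnrnpd (chr5:99955935-99978938, minus strand), which encodes AUF1, had 1 peak in all, of 13 reads in Flag-MBD6 replicate 2.

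Hnrnpc (chr14:52073377-52104028, minus strand) encodes a core hnRNP protein that binds uridine tracts in introns. It held 1, 2, 2 and 3 peaks in 3 sites. Site 3, at codon 234 of transcript Hnrnpc-201 in the acidic end of the protein, held 27, 32, 53 and 51 reads, or 56.4, 64.0, 53.9 and 45.9 RPM, with a log2 ratio of −0.28 (interval −0.75 to 0.21). Hnrnpk (chr13:58391142-58403343, minus strand) encodes a KH-domain protein that binds cytidine-rich RNA and also acts in transcription. It held 3, 3, 1 and 3 peaks in 5 sites and site 5 alone was shared by all 4. Site 5, near the carboxy terminus at codon 426, held 13, 14, 13 and 26 reads, or 27.1, 27.99, 13.2 and 23.4 RPM. The log2 ratio was −0.57, with an interval of −1.31 to 0.20.

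Hnrnpm (chr17:33646233-33686860, minus strand) encodes a splicing factor that binds GU-rich RNA. It held 3, 3, 6 and 6 peaks in 7 sites, 3 of them in all 4 libraries. Site 1, at codon 4 directly after the start of the coding sequence, held 18, 19, 39 and 49 reads (37.6, 38.0, 39.6 and 44.1 RPM). Its log2 ratio was 0.15 (interval −0.42 to 0.75) in reads but 1.58 in fold enrichment, which stood at 6.41 and 10.9 in Flag-MBD5 and at 20.2 and 31.4 in Flag-MBD6. Site 3, at codon 98, went the other way with 20, 22, 19 and 24 reads. In RPM it stood at 41.8 and 44.0 in Flag-MBD5 and at 19.3 and 21.6 in Flag-MBD6, with a log2 ratio of −1.06 (interval −1.71 to −0.42). Site 6, with 4 lysine codons of 9, held 13, 12, 22 and 21 reads and a log2 ratio of −0.32 (interval −1.06 to 0.46). The ratios of sites 1 and 3 lay on opposite sides of 0, but their intervals met, and the difference between sites was not tested.

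**Figure D3:**
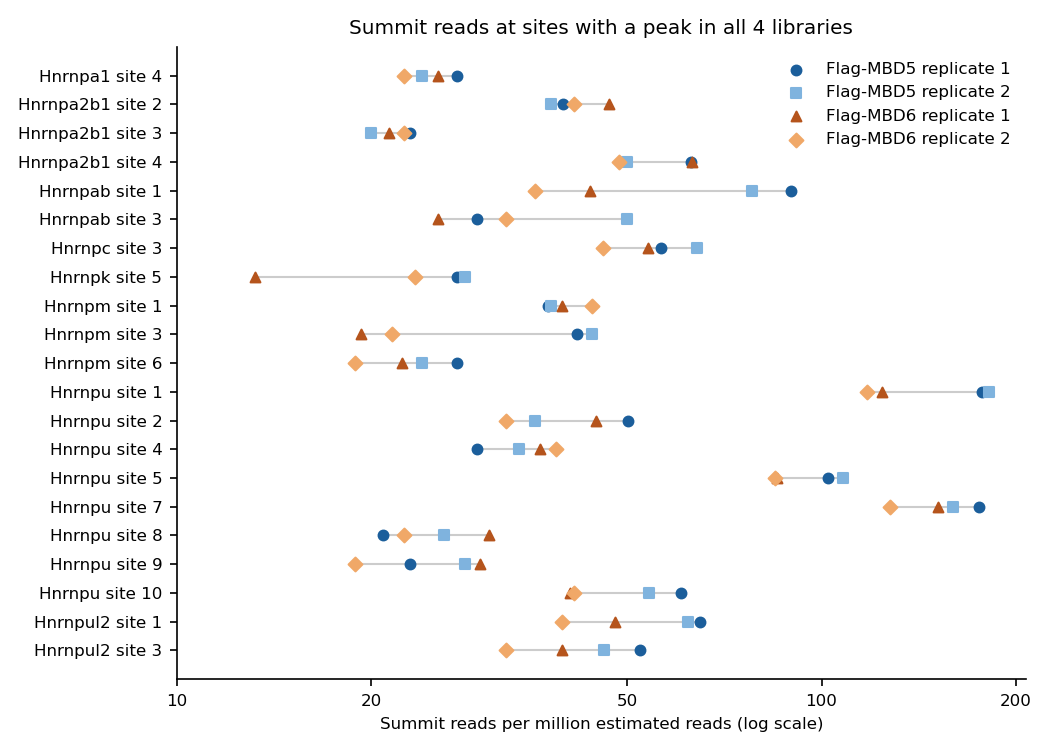
Reads at the summit per 1000000 estimated reads (x axis, log scale) in the 4 libraries at the 21 member sites with a peak in all 4 (y axis), 1 point per library. Libraries of a protein lie close together at most sites. Flag-MBD5 lies furthest above Flag-MBD6 at Hnrnpab site 1 and Hnrnpm site 3, and by less at several other sites, among them Hnrnpu sites 1, 5, 7 and 10.

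The balance between the 2 proteins at the member sites was close to that at all sites. Scaled by estimated reads, the log2 ratio of Flag-MBD6 to Flag-MBD5 had a median of −0.28 over the 21 member sites (range −1.08 to 0.25) and of −0.34 over all 3566 sites with a peak in all 4 libraries. It was above 0 at 5 member sites and below 0 at 16. Relative to the shift of −0.34 that all sites share, the members therefore lay near the middle. The RPM of the 2 proteins did not overlap at several member sites, with Flag-MBD5 higher at some and Flag-MBD6 higher at others. Hnrnpm site 1 and Hnrnpu site 4 were among the latter. The share of all sites without overlap was not computed, so a lack of overlap sets no member site apart. The interval was below 0 at 4 member sites (Hnrnpab site 1, Hnrnpm site 3, and sites 1 of Hnrnpu and Hnrnpul2), against 33.7% of all sites, and above 0 at none, against 4.85% of all sites. Past 2-fold for both replicate numbers were Hnrnpab site 1 and Hnrnpm site 3 towards Flag-MBD5 (2 sites, background 6.09%) and 0 sites towards Flag-MBD6 (background 0.421%). This count of 2 fell to 1 without Flag-MBD5 replicate 1, without Flag-MBD5 replicate 2 or without Flag-MBD6 replicate 1. The member median was −0.39 without Flag-MBD6 replicate 1 and −0.15 without Flag-MBD6 replicate 2.

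The direction depended on the scaling. With libraries scaled by the median ratio over sites, the median moved to 0.060 for the members and 0.0043 for all sites, and 0 member sites stayed past 2-fold. Hnrnpab site 1 then had a log2 ratio of −0.74 (interval −1.20 to −0.28) and Hnrnpm site 3 of −0.72 (interval −1.37 to −0.075). These 2 were the member sites whose interval stayed below 0 under either scaling, and the intervals of Hnrnpu site 1 and Hnrnpul2 site 1 then included 0. By this scaling 16.4% of all sites had an interval below 0 and 15.4% above. In fold enrichment the median log2 ratio was 0.43 over member sites, 15 above 0 and 6 below, and 0.41 over all sites, opposite in sign to the ratio of reads scaled by estimated depth. Fold enrichment adds a constant to reads and background and is not scaled to depth, so at low background it also rises with depth. The 2 ratios thus do not measure the same thing.

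**Figure D4:**
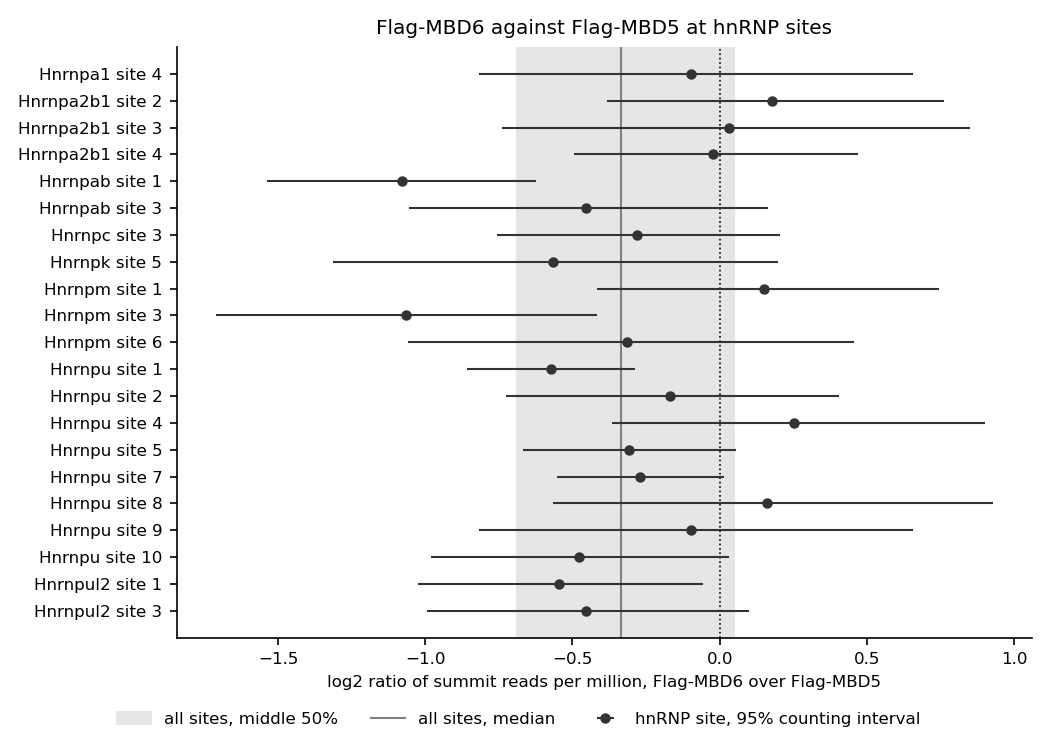
Log2 ratio of Flag-MBD6 to Flag-MBD5 summit reads, scaled by estimated reads, at the 21 member sites with exact 95% counting intervals, beside the distribution over all 3566 sites with a peak in all 4 libraries. The member median of −0.28 lies close to the median of all sites at −0.34, and Hnrnpab site 1 and Hnrnpm site 3 lie lowest.

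Most member peaks began in coding sequence. Read 15 nt in from the 5′ end, 96.3%, 96.4%, 89.2% and 81.0% of the member peaks lay in coding exons, against 78.1%, 78.5%, 79.4% and 79.3% of all peaks. The 2 sets are unlike, since the members are all protein-coding genes. All peaks include 15.7%, 15.1%, 13.0% and 12.9% in non-coding exons and 2.20%, 2.52%, 2.23% and 2.20% outside genes. Pooled over the libraries of a protein, the share was 96.4% in Flag-MBD5 (interval 87.5% to 99.6%) and 84.8% in Flag-MBD6 (74.97% to 91.9%). However, 22 member sites had a peak in both Flag-MBD5 libraries and 32 in both Flag-MBD6 libraries. Such sites count more than once, so these intervals are too narrow and do not compare the proteins. By site, 39 of 47 were coding, 2 lay in a 5′ UTR, 2 in a 3′ UTR, 3 in an intron and 1 in a non-coding exon. Among the 21 sites in all 4 libraries, 20 were coding and Hnrnpu site 1, whose peaks begin on both sides of the start codon, was placed in the 5′ UTR. Reads had been extended to 150 bp along the genome with no allowance for splicing, so a peak that begins in an exon can run into the next intron. At the midpoint of the peak 21 of the 47 sites lay in an intron and 21 in coding sequence. By peak, the coding share at the midpoint was 44.4%, 46.4%, 43.2% and 42.9% for the members. For all peaks it was 54.0%, 53.1%, 54.3% and 54.1%. The member share was thus above that of all peaks near the 5′ end but below it at the midpoint. Along the coding sequence the 5′ ends had a median position of 53.5%, 45.1%, 50.0% and 45.1% of its length.

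A G stood directly before the start of 81.5%, 78.6%, 80.6% and 75% of the member windows, where RNase T1 would cut, beside 83.3%, 82.8%, 74.0% and 73.3% of all windows on protein-coding transcripts. Adenosine made up 36.3%, 36.5%, 34.6% and 36.8% of the member windows, against 28.5% of the members' whole coding sequences and 37.3% to 38.6% of all windows. Cytidine, the base that carries RNA m5C, made up 17.4%, 18.5%, 18.4% and 16.2%, below the 20.3% to 22.1% of all windows. The ratio of observed CpG to that given by the C and G content was 0.613, 0.674, 0.648 and 0.678 in the member windows and 0.594 to 0.631 in all windows.

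Codons in the member windows differed from the members' coding sequences as a whole. Aspartate and glutamate codons made up 21.3%, 20%, 18.5% and 19.6% of the window codons against 14.3% of the coding sequences, with 22.9% to 23.3% in all windows. Lysine codons made up 12.6%, 11.6%, 11.3% and 13.0% against 6.66%, with 13.0% to 13.7% in all windows. Glycine codons, at 13.4%, 13.2%, 12.5% and 12.4%, were more common than the 3.67% to 3.99% of all windows, but the members' coding sequences themselves hold 15.7%. Arginine codons stood at 4.18%, 4.40%, 5.33% and 5.59%, under the 6.66% of the coding sequences. Windows of 1 gene share its sequence and those of the 4 libraries share sites, so no test was made of these shares.

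**Figure D5:**
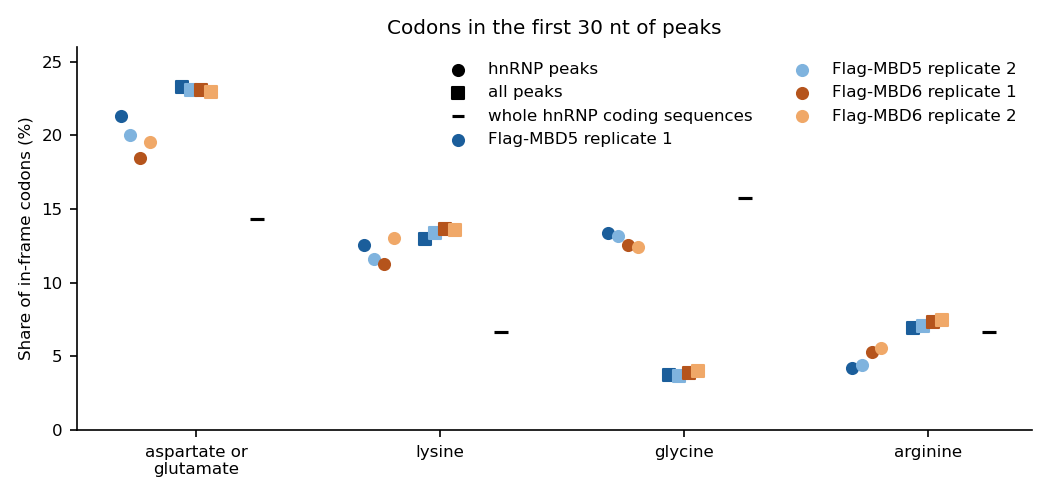
Share of codons (y axis, percent) for aspartate or glutamate, lysine, glycine and arginine in the 30 nt windows of member peaks and of all peaks in the 4 libraries, beside the whole coding sequences of the members. Acidic and lysine codons are more frequent in the windows than in the coding sequences, and glycine codons are frequent in the members and rare in all windows.

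Several hnRNP genes have processed copies elsewhere in the genome, and the alignment kept a read only when it had at most 10 best placements and then reported 1 of them. Of the 30-nt stretches of the Hnrnpa3 coding sequence, 97.7% occur unchanged in a transcript of another annotated gene and 88.4% in at least 10 other genes. For Hnrnpa1 these shares were 83.6% and 3.85%, for Hnrnpk 86.1% and 0%, for Hnrnpc 58.2% and 0%, and for Hnrnpa2b1 20.7% and 0%. Hnrnpu, Hnrnpm and Hnrnpab had no such stretch. Hnrnpd, with 2.32%, had few copies and a single peak. The number of peaks in Hnrnpa3 and Hnrnpa1 is thus not comparable with that in Hnrnpu, and the part of the copies in the low counts was not tested.

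By site, 11 of the 46 windows that could be read occur unchanged in another gene and 19 occur with up to 3 mismatches, the number that the alignment allowed. Among the 21 windows of sites in all 4 libraries, 2 occur unchanged elsewhere, 1 in Hnrnpa1 and 1 in Hnrnpa2b1, and 8 occur elsewhere with up to 3 mismatches. Reads at sites with unchanged copies could stem from any of those copies. For copies with mismatches this holds mainly for reads that cover no mismatch, since the alignment kept only the best placements. The windows of Hnrnpab site 1 and Hnrnpm site 3, which had the lowest ratios, occur in no other gene even with 3 mismatches.

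Other genes of the hnRNP family and related RNA-binding proteins were counted from a list of 20. Of these, 9, 8, 13 and 13 had a peak in the 4 libraries, and 7 had a site in both Flag-MBD5 libraries, 13 in both Flag-MBD6 libraries and 7 in all 4. Hnrnpl, which binds CA repeats, had 4 sites in all 4 libraries, and Ptbp1, the polypyrimidine tract-binding protein, had 3. Hnrnpdl and Pcbp1 had 2 each, and Hnrnpul1, Rbmx and Elavl1 had 1. No peak was found in Hnrnpa0, Hnrnpf, Hnrnph2, Hnrnpll, Pcbp2, Raly or Msi2. Transcript levels were not measured in these libraries, so a gene without a peak and a gene with little RNA cannot be told apart. Of 10 stem cell markers, 5, 6, 8 and 8 had a peak and 3 a site in all 4 libraries, and 0 of 7 markers of feeder fibroblasts had one.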

How the data were processed

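CLIP–seq peak lists of 2 Flag-MBD5 and 2 Flag-MBD6 libraries were analysed. The authors quality-filtered, clipped and collapsed the reads, removed ribosomal RNA, aligned reads over 15 nt to mm10 with Bowtie 1.0.0 (up to 3 mismatches and 10 placements, 1 reported, no splicing), separated strands with SAMtools 1.16.1 and called peaks on each strand of each library with MACS2 (extension 150 bp, genome size 130000000 bp, q under 0.01, at most 5 duplicates). The submitters' processing notes name the same tools and build. The deposited score is a whole-number form of the −log10 q. The deposited fold enrichment was taken as the ratio of summit reads to local background, with 1 added to each and no scaling to depth. Significance was deposited as −log10 p and −log10 q.

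Summit reads and background rate were solved for each peak from its −log10 p and fold enrichment as a whole number and a Poisson rate, which succeeded for 100% of peaks (relative tolerance 2e-05). The lowest rate per strand gave the estimated total reads. These totals, from 478790 to 1111742, set the precision. Fold changes between proteins use reads per 1000000 of these estimates, summed over the 2 libraries of a protein, with exact conditional binomial intervals at 95% confidence. Shares have exact Clopper-Pearson intervals. Reads were recovered from simulated peaks made with the same formulas, which checks the solver but not whether the formulas hold for the deposited files. Windows of 30 nt came from GENCODE M21 transcripts. Python 3.11.15, numpy 2.4.6, scipy 1.17.1 and matplotlib 3.10.9 were used.

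All 10 members are named, sites in all 4 libraries are described singly, and up to 2 per gene, by mean fold enrichment, are shown in full, but the sequences of 2 of these are not reported here. The members and gene lists were chosen with earlier results of these data known. Labels do not say whether replicates came from separate cultures. Alternatives varied the q and fold limits, the number of peaks, the overlap, the position read, the scaling, the window and the libraries kept.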

Additional observations from a re-analysis of the deposited data

How the results depend on the processing

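Of 33 values recomputed under alternatives that kept all 4 libraries, 26 stayed within the limits set for a change. The coding share of member peaks was 45.5% (Flag-MBD5) and 43.0% (Flag-MBD6) at the midpoint of the peak, below the 53.1% to 54.3% of all peaks. It was 61.8% and 62.0% at the summit, and 92.6% for Flag-MBD6 with the 5362 best peaks of each library. That setting also gave 7 genes and a mean of 27 peaks for Flag-MBD6. Scaling by the median ratio over sites turned the median log2 ratio to 0.060 and left 0 sites past 2-fold. Stricter limits on q (0.001) or fold enrichment (4) removed 0 member peaks, so the 18 values under them could not change and are not counted.

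Without 1 library at a time, 27 of 32 values stayed within limits. Ranges were 8 to 8 genes with a Flag-MBD5 site and 9 to 10 with a Flag-MBD6 site, 27 to 28 and 37 to 42 peaks, 22 to 23 shared sites, coding shares of 96.3% to 96.4% and 81.0% to 89.2%, a median log2 ratio of −0.39 (without Flag-MBD6 replicate 1) to −0.15 (without Flag-MBD6 replicate 2), and 1 to 2 sites past 2-fold. The count past 2-fold was 1 without Flag-MBD5 replicate 1, Flag-MBD5 replicate 2 or Flag-MBD6 replicate 1. Chosen after seeing the data, leaving out a library also gave adenosine shares of 36.3% to 36.5% and 34.6% to 36.8%, and acidic codon shares of 20% to 21.3% and 18.5% to 19.6%.

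No paired analysis was possible because each protein counted as 1 sample and the results come from no test. Replicate numbers served only in the 2-fold rule. The 4 sites whose interval excluded 0 had at least 19 reads in every library, and smaller differences at shallower sites were not detectable at this depth. The deeper Flag-MBD6 libraries can show weaker peaks, so a missing Flag-MBD5 peak does not show missing binding.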
